A study of Mus musculus with 4 samples.

Results

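Spots of the infarct zone (IZ) that were rich in transcripts of complement C1q, a product of macrophages, were compared with IZ spots of the same heart that were poor in them. The C1q-high class held 664 spots and the C1q-low class 664 spots, out of 2651 IZ spots and 5909 spots of the whole series. Both classes were chosen by the measured C1q share of each spot, so C1q values in these classes are a description, and C1q genes were tested only on counts or rankings that had not used them.

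Visium arrays, on which each spot captures polyadenylated RNA from a small region that can hold several cells, were used to measure gene expression. The mice carried a Collagen1a1-GFP transgene, in which the promoter of a collagen gene drives GFP in fibroblasts, were 8 to 12 weeks old and were either healthy or infarcted by permanent ligation of the left anterior descending coronary artery. The 3 infarcted sections, each from a different heart, were taken at 3 days post-infarction (3 dpi, 1 section, labelled female) and 5 dpi (1 section labelled female, 1 labelled male), and 1 section of a healthy heart labelled female served as the background. Transcripts of 4 Y-linked genes went against the labels at 5 dpi, with 718 UMIs in the section labelled female and 1 UMI in the section labelled male, so these sections are named by their labels only. No result below compares the sexes. Values of the 3 infarcted sections are always given in the order 3 dpi, 5 dpi labelled female and 5 dpi labelled male.

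C1q is the recognition component of the classical complement pathway, and its chains are encoded by C1qa, C1qb and C1qc. In most tissues macrophages are its main source, and it marks immune complexes and dying cells for uptake. After an infarct, macrophages and the monocytes that feed them clear dead cardiomyocytes and then accompany the formation of the scar.

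Promoters of genes that set or led the ranking are shown because these genes moved together over the spots. They run from 250 bases before to 50 bases after the transcription start, 5′ to 3′ on the strand of the gene, and come from RefSeq (GRCm38.p6), in which 2 of the 3 C1q genes and 12 of the 12 genes highest in the C1q-high class had an entry. Capitals mark the core motif of the myeloid factor PU.1, AGGAAGT or its reverse complement ACTTCCT, in the promoters of C1qb (chr4:136886151-136886450, minus strand), C1qc (chr4:136892865-136893164, minus strand) and Ctss (chr3:95526536-95526835, plus strand), and the AP-1 motif, TGACTCA or its reverse complement TGAGTCA, in that of Gpnmb (chr6:49036268-49036567, plus strand).
C1qb: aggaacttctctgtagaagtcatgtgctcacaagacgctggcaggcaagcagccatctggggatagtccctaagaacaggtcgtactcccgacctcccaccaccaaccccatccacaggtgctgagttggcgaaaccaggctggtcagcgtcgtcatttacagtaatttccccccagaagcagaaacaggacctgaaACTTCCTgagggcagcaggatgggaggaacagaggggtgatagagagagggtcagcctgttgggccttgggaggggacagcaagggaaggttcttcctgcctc
C1qc: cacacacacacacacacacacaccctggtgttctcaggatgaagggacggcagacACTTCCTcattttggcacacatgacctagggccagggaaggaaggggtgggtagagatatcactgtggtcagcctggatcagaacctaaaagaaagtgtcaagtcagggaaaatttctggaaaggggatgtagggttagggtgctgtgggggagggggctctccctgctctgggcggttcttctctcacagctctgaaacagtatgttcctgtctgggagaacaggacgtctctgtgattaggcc
Ctss: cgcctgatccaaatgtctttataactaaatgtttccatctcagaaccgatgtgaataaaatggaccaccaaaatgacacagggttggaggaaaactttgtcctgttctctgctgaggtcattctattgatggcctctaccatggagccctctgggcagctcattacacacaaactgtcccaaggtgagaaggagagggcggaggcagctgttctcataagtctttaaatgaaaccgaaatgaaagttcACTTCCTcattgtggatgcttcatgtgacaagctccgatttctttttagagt
Gpnmb: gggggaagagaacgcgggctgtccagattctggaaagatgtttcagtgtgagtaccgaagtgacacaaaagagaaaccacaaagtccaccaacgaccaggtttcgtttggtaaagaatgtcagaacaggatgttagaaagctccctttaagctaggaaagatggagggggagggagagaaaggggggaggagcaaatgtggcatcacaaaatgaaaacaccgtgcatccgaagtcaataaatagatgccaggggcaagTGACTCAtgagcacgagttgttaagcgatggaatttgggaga
The first base of the PU.1 core lay at -53 in C1qb, -195 in C1qc and -2 in Ctss relative to the start, and the AP-1 motif of Gpnmb at position 9. The PU.1 core was found in 9.35% of the 32851 promoters in the table and in at least 1 promoter of 10.7% of its 27025 genes, against 4 of the 12 genes highest in the C1q-high class (Blnk, Ctss, Lyz2 and Selenop) and 1 of the 11 lowest genes with an entry (Acta1). The AP-1 motif was found in 5.2% of all promoters and 5.95% of all genes, in 2 of these 12 highest genes (Cd68 and Gpnmb) and in 0 of the 11 lowest. A match says only that these letters lie in this window.

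The IZ was delimited by cardiomyocyte RNA. A spot was counted as infarcted when 12 cardiomyocyte genes made up less than 0.5 times the 90th percentile of their share in the section, in connected patches of at least 10 spots. This gave 886, 1081 and 684 IZ spots. Within each section, the top quartile by C1q UMIs per non-mitochondrial UMI formed the C1q-high class (222, 271 and 171 spots) and the bottom quartile the C1q-low class (222, 271 and 171 spots). UMIs were then summed per class and section, so that hearts and not spots are the replicates.

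C1q transcripts were measured at 433 CPM, counts scaled to a fixed total of non-mitochondrial UMIs, in the healthy heart and at 881, 968 and 792 CPM in the remote zone (RZ) of the infarcted sections, the spots more than 4 spot steps away from the IZ. In the C1q-low class of the IZ the level was 1208, 1989 and 1859 CPM, and in the C1q-high class 4657, 7069 and 8009 CPM. C1q-low spots were therefore above the remote myocardium in every section, and the 3 dpi section was the lowest in both classes. C1qa was measured at 368, 649 and 592 CPM in the C1q-low spots and at 1263, 2107 and 1943 CPM in the C1q-high spots. C1qb was measured at 530, 872 and 823 CPM against 2249, 3251 and 4169 CPM. C1qc was measured at 310, 469 and 445 CPM against 1145, 1711 and 1897 CPM. All 3 chains rose over the 4 quartiles of every section, as the ranking implies. The spots just inside the C1q-high class had 3605, 5763 and 6352 CPM and those just outside 3603, 5761 and 6350 CPM. At the lower limit the spots just inside had 1635, 2831 and 2733 CPM and those just outside 1641, 2833 and 2733 CPM. Spots of the C1q-low class held a median of 6, 13 and 12 C1q UMIs and those of the C1q-high class 26, 51 and 55, so a spot near a limit can change class by counting error alone.

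Because the same UMIs set the classes and gave these levels, C1q was also measured on transcripts that the ranking had not used. When each count was divided into 2 parts, with 1 part used to rank and the other to measure, C1qb was at 751, 1018 and 973 CPM in the low spots and at 1989, 3005 and 3979 CPM in the high spots (edgeR quasi-likelihood test, log2 fold change 1.62, SE 0.13, Benjamini-Hochberg adjusted p = 3e-09). On the same divided counts C1qa was 1.26 higher on the log2 scale (SE 0.12) and C1qc 1.44 higher (SE 0.13). When spots were ranked by C1qa alone, C1qb was 1.32 higher on the log2 scale (SE 0.09, adjusted p = 1.4e-09 by the same test) and C1qc 1.16 higher (SE 0.10, adjusted p = 2e-08). The other chains thus followed C1qa in all 3 sections, with a smaller contrast than in the classes used below.

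**Figure D1:**
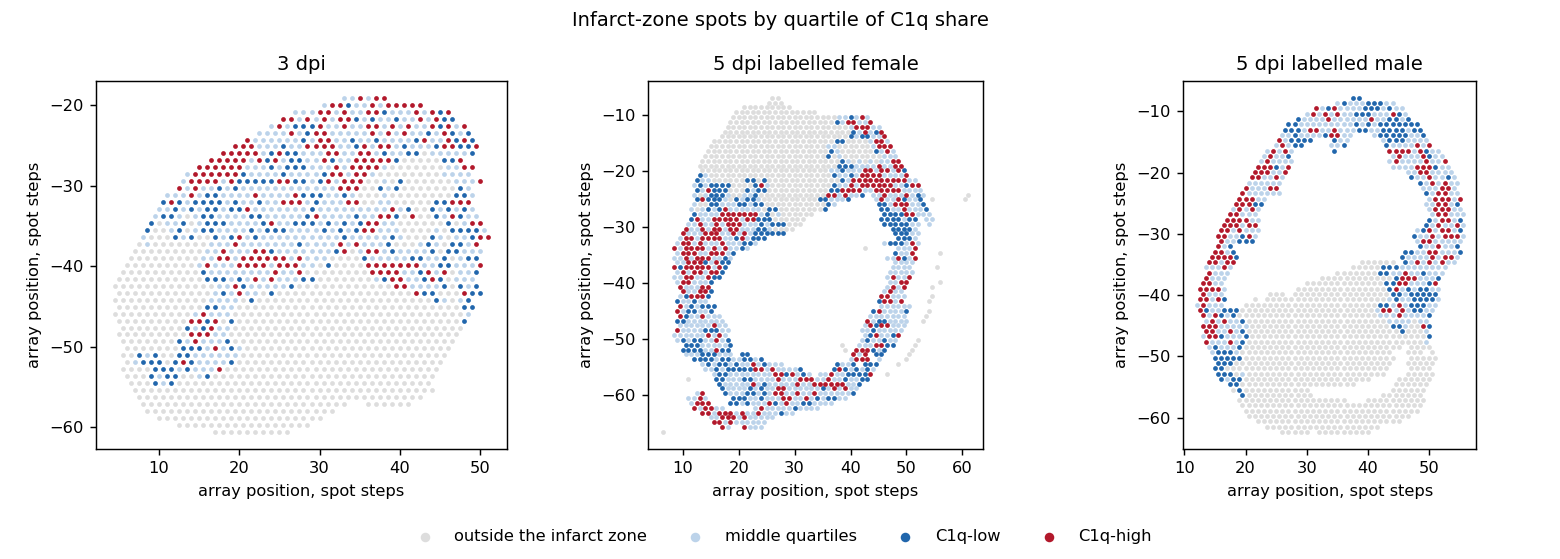
Position of the C1q-high (red) and C1q-low (dark blue) spots on the array in the 3 infarcted sections, with both axes in spot steps; pale blue spots are the middle quartiles of the IZ and grey spots lie outside it. High spots lie in runs beside each other, and of the IZ neighbours of C1q-high spots 44.1%, 44.3% and 44.6% were C1q-high too.

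Spots of a class lay beside each other more often than the 0.25 of the IZ spots that each class holds, by a smaller margin for C1q-low spots at 3 dpi. Of the IZ neighbours of C1q-high spots, 44.1%, 44.3% and 44.6% were themselves C1q-high and 14.7%, 8.97% and 6.37% were C1q-low. Of the IZ neighbours of C1q-low spots, 32.5%, 45.6% and 50.1% were themselves C1q-low. Within 2 spot steps of the edge of the IZ lay 54.5%, 29.2% and 29.8% of the C1q-low spots, against 27.0%, 8.49% and 3.51% of the C1q-high spots. C1q-low spots were thus closer to the surviving myocardium in each section. Some spots lay beside an array position not marked as under tissue, or beside the array frame. They made up 4.05%, 33.2% and 41.5% of the low class and 14.4%, 18.5% and 25.7% of the high class. The 3 dpi section thus ran opposite to the 5 dpi sections. In the section labelled male 623 unmarked spots held counts, so this is the edge of the tissue mask and not always that of the heart. Cardiomyocyte RNA made up 3.13%, 1.47% and 1.76% of non-mitochondrial UMIs in the C1q-low class and 0.907%, 0.264% and 0.189% in the C1q-high class. Mitochondrial transcripts made up 14.4%, 9.38% and 6.34% of all UMIs in the low class and 4.71%, 2.32% and 1.01% in the high class. Depth was close between the classes, with medians of 6724, 7424 and 7330 UMIs per C1q-low spot and 6089, 7462 and 6917 per C1q-high spot. These are descriptions of 3 hearts with no test. The part that cardiomyocyte RNA and position have in the gene differences was not tested as a cause, and values within quartiles of the cardiomyocyte share are given further on.

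Across 9459 genes tested, 1069 (11.3%) were higher and 1126 (11.9%) lower in the C1q-high class by edgeR's quasi-likelihood test with the section as a block, at a Benjamini-Hochberg adjusted p under 0.05. Of these, 1059 and 1108 had the direction of the pooled test in each of the 3 sections, and 428 and 467 differed by more than 2-fold. The number higher was 801 to 961 and the number lower 872 to 996 when 1 section was left out, and 585 higher and 668 lower genes were called the same way without each section in turn. Adjusted p-values below come from this test over all genes unless another fit or an interaction is named. Sums over spots hold RNA of all cell types, so fewer cells of a type and less RNA per cell cannot be told apart here.

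The genes highest in the C1q-high class were led by those of phagocytes. Gpnmb, a membrane glycoprotein of lipid-laden macrophages, was measured at 108, 246 and 138 CPM in the C1q-low spots and 668, 902 and 1130 CPM in the C1q-high spots (log2 fold change 2.44, SE 0.17, adjusted p = 6.33e-09), against 1.84 CPM in the healthy heart. All 3 high values exceeded all 3 low values. Ccl8, a chemokine that attracts monocytes and lymphocytes, was measured at 58, 73.9 and 48.8 CPM in the C1q-low spots and 281, 275 and 304 CPM in the C1q-high spots (log2 fold change 2.18, SE 0.14, adjusted p = 6.33e-09). Its high classes were alike in the 3 sections, whereas its low classes lay below the RZ of the labelled female and labelled male sections, at 102 and 61.6 CPM. Ctss, the lysosomal protease cathepsin S that trims the invariant chain of MHC class II, was at 394, 575 and 409 CPM in the C1q-low spots and 1497, 1933 and 2046 CPM in the C1q-high spots (log2 fold change 1.95, SE 0.13, adjusted p = 6.33e-09). Lyz2, the lysozyme of myeloid cells, was at 1510, 2727 and 1900 CPM in the C1q-low spots and 6176, 8424 and 8853 CPM in the C1q-high spots (log2 fold change 1.91, SE 0.13, adjusted p = 6.33e-09), and Cd68, a lysosomal membrane protein of macrophages, at 186, 217 and 160 CPM in the C1q-low spots and 662, 649 and 747 CPM in the C1q-high spots (log2 fold change 1.82, SE 0.13, adjusted p = 7.48e-09). For each of these the groups did not overlap and the level rose over all 4 quartiles in every section.

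The other genes named among the 12 highest differed by 1.78 to 1.92 on the log2 scale. They were Pla2g7 (1.92), a lipase that degrades platelet-activating factor, Blnk (1.89), an adaptor of immune receptor signalling, Wfdc17 (1.85), Pltp (1.82), which transfers phospholipids between lipoproteins, Ms4a7 (1.82), a membrane protein of macrophages, Selenop (1.80), a secreted carrier of selenium, and Gm21188 (1.78). Pltp and Ms4a7 differed among the sections. Ms4a7 was measured at 129, 176 and 149 CPM in the C1q-low spots and 318, 625 and 791 CPM in the C1q-high spots, and Pltp at 37.8, 84.4 and 82.6 CPM in the C1q-low spots and 115, 276 and 378 CPM in the C1q-high spots. The 3 dpi section had the smallest ratio for both genes, but neither difference between days passed the interaction test (adjusted p = 0.175 for Ms4a7 and 0.999 for Pltp).

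**Figure D2:**
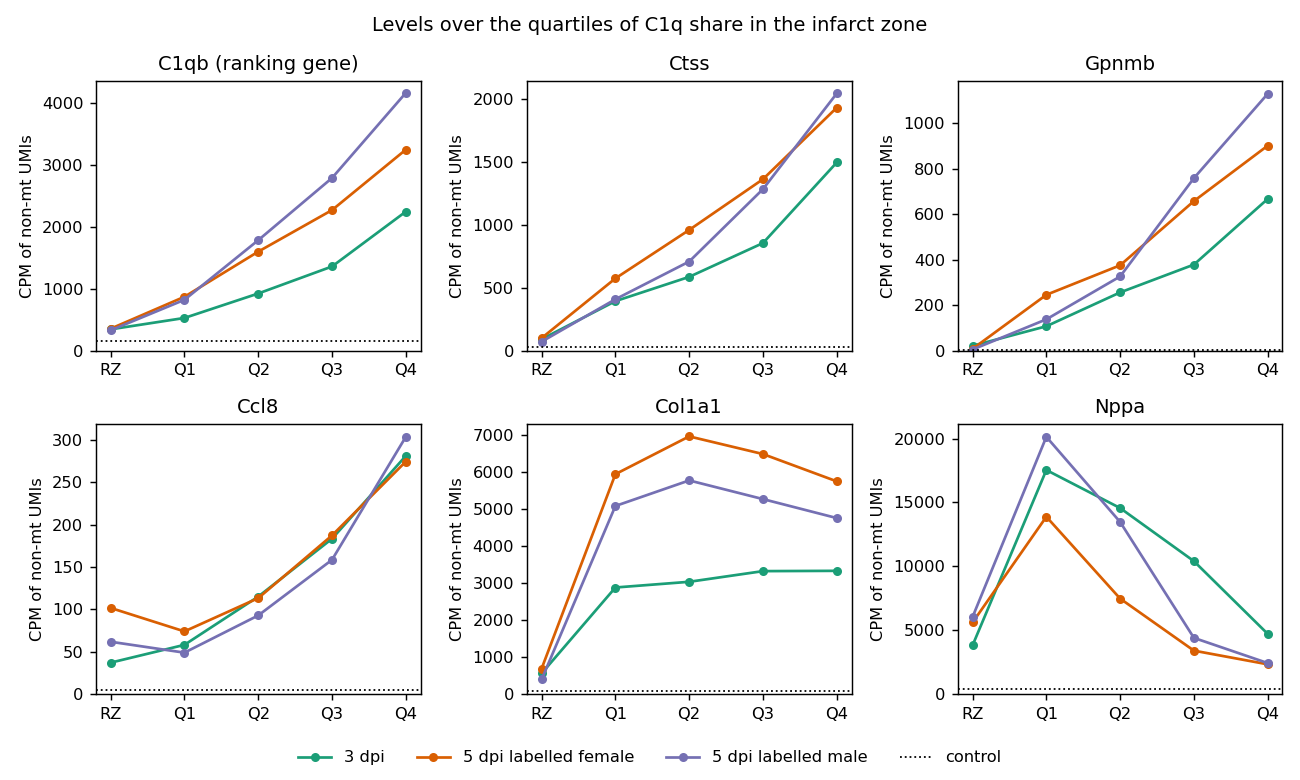
Level of C1qb (used to rank), Ctss, Gpnmb, Ccl8, Col1a1 and Nppa in CPM of non-mitochondrial UMIs over the RZ and the 4 quartiles of C1q share in the IZ (Q1 lowest, Q4 highest), 1 line per infarcted section, with the healthy heart dotted. Ctss, Gpnmb and Ccl8 rise from Q1 to Q4 in each section, Nppa falls from between 13880 and 20140 CPM to between 2319 and 4704 CPM, and Col1a1 stays within 2873 to 6953 CPM over the quartiles.

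All 12 pan-macrophage genes were higher in the C1q-high class (12 higher, 0 lower, median log2 fold change 1.55, against -0.01 over all genes tested). Their summed level was 3541, 5518 and 4248 CPM in the C1q-low class and 12508, 16237 and 17848 CPM in the C1q-high class. Besides Ctss, Lyz2 and Cd68 these were Fcer1g 1.64, Tyrobp 1.59, Adgre1 1.58, Itgam 1.51, Aif1 1.34, Ptprc 1.25, Csf1r 1.23, Laptm5 1.22 and Cd14 0.80. Csf1r, the receptor for the growth factor on which macrophages depend, was measured at 145, 193 and 132 CPM in the C1q-low spots and 290, 446 and 409 CPM in the C1q-high spots. Adgre1, which encodes F4/80, was at 53.8, 71.2 and 62.8 CPM in the C1q-low spots and 135, 212 and 241 CPM in the C1q-high spots. Both rose over the quartiles of all 3 sections. Cd14, a co-receptor for bacterial lipopolysaccharide, had the smallest difference (adjusted p = 0.00561), which was 0.59 and no longer called without the 3 dpi section. Over IZ spots the C1q share and the pan-macrophage share had a Spearman rho of 0.637, 0.686 and 0.812, over 886, 1081 and 684 spots that share a library and a denominator. Since the ranking used a macrophage product, more macrophage RNA per spot and more C1q per macrophage cannot be told apart by these classes.

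Genes of resident and mature macrophages were higher as well. Of 14 resident macrophage genes, 10 could be tested, 9 were higher and 0 lower, with a median of 1.3. Lyve1, Timd4, Cd163 and Vsig4, which mark long-lived cardiac macrophages, were too low to be tested. The higher genes included Selenop 1.80, Maf 1.55, Folr2 1.47, Pf4 1.31, Mrc1 1.3, F13a1 1.3, Igf1 1.0 and Cbr2 0.92, while Gas6 had 0.29 (adjusted p = 0.116). Folr2, a folate receptor of resident macrophages, was measured at 40.3, 28 and 19 CPM in the C1q-low spots and 101, 87.1 and 58.3 CPM in the C1q-high spots, and Mrc1, the mannose receptor, at 49.6, 43.8 and 28.9 CPM in the C1q-low spots and 104, 110 and 96.9 CPM in the C1q-high spots. Pf4, a chemokine of platelets and macrophages, was at 392, 393 and 476 CPM in the C1q-low spots and 1489, 974 and 856 CPM in the C1q-high spots, with the 3 dpi section highest in the C1q-high class and lowest in the C1q-low class. For these 3 genes the groups did not overlap. Of 10 mature macrophage genes, 8 could be tested and 7 were higher (median 1.25), among them Ms4a7 1.82, Apoe 1.74, C3ar1 1.58, Stab1 1.19, Cd72 0.98 and Cx3cr1 0.67. Apoe, the lipid carrier apolipoprotein E, was measured at 1413, 3303 and 3494 CPM in the C1q-low spots and 5452, 10080 and 12190 CPM in the C1q-high spots (log2 fold change 1.74, SE 0.12, adjusted p = 6.33e-09). All high values exceeded all low values, and the 3 dpi section was the lowest in both classes. Tmem119, a marker of microglia, had 0.08 (adjusted p = 0.737). The call for Cx3cr1, the fractalkine receptor (adjusted p = 0.0408), was lost without either 5 dpi section, at 0.82 without that labelled female and 0.51 without that labelled male.

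The list of Spp1 lipid-associated macrophages was higher in 11 of 12 genes and lower in 1 (median 1.41). Spp1, which encodes osteopontin, was measured at 1274, 1379 and 761 CPM in the C1q-low spots and 4643, 3859 and 2641 CPM in the C1q-high spots (log2 fold change 1.67, SE 0.12, adjusted p = 7.48e-09), against 0 UMIs in the healthy heart. Levels were highest at 3 dpi in the C1q-high class and every high value exceeded every low value. Trem2, a lipid receptor of phagocytes, was at 128, 190 and 161 CPM in the C1q-low spots and 391, 565 and 694 CPM in the C1q-high spots, and Fabp5, a fatty acid binding protein, at 535, 811 and 616 CPM in the C1q-low spots and 2052, 1899 and 2350 CPM in the C1q-high spots. The higher genes were Gpnmb 2.44, Trem2 1.72, Spp1 1.67, Fabp5 1.65, Mmp12 1.56, Lgals3 1.46, Plin2 1.37, Acp5 1.02, Syngr1 0.80, Cd9 0.50 and Cd63 0.33. The call for Cd63 was lost without either 5 dpi section, at 0.30 each time. The lower gene was Lpl, lipoprotein lipase, which cardiomyocytes also express, at 553, 334 and 218 CPM in the C1q-low spots and 332, 161 and 117 CPM in the C1q-high spots (log2 fold change -0.94, SE 0.11, adjusted p = 2.64e-06). Its level in the RZ was 2791, 2585 and 1663 CPM.

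Markers of recruited monocytes and the macrophages of the early infarct were also higher, in 8 of 10 genes tested of 12 (0 lower, median 1.27). Ccr2, the receptor that draws monocytes out of the blood, was measured at 40.3, 43.3 and 36.4 CPM in the C1q-low spots and 104, 95.9 and 73.9 CPM in the C1q-high spots (log2 fold change 1.13, SE 0.14, adjusted p = 5.21e-06), without overlap. Other higher genes were Adam8 1.57, Ly6c2 1.5, Saa3 1.47, Chil3 1.42, Ms4a4c 1.10 and Plac8 0.61, while F10 had 0.91 (adjusted p = 0.0534) and Vcan 0.05 (adjusted p = 0.83). Saa3, an acute-phase protein, was at 3.36, 51.7 and 112 CPM in the C1q-low spots and 52.1, 383 and 55 CPM in the C1q-high spots and ran the other way in the section labelled male. Its ratio was 15.5 at 3 dpi, on 4 against 68 UMIs, and 7.41 in the section labelled female. The difference was 0.14 without the section labelled female and 2.96 without that labelled male. Neutrophil markers were higher in 2 of 6 genes tested of 10 (median 0.19), Clec4d (1.34) and Csf3r (1.0, 0.73 and not called without the section labelled male, 1.63 without that labelled female). S100a8 and S100a9, the most abundant proteins of neutrophils, had 0.10 and 0.29 (adjusted p = 0.754 and 0.159), and passed the test at 0.46 and 0.49 when the section labelled male was left out. S100a8 was measured at 78.2, 87.1 and 115 CPM in the C1q-low spots and 119, 120 and 68.2 CPM in the C1q-high spots, with overlap.

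Levels of the macrophage lists were also set against each other. Relative to the summed UMIs of the 12 pan-macrophage genes, the C1q sum was 34.1%, 36.1% and 43.8% in the C1q-low class and 37.2%, 43.5% and 44.9% in the C1q-high class. The sum of the resident genes went from 26.2%, 20.4% and 22.7% to 22.6%, 17.1% and 14.1%. The sum of the Spp1 list went from 124%, 95.1% and 90.4% to 94.5%, 70.0% and 61.5%, and that of recruited monocyte genes from 13%, 9.23% and 11.5% to 11.5%, 8.21% and 4.15%. MHC class II went from 22.2%, 19.0% and 32.4% to 12.4%, 15.2% and 17.5%. The neutrophil sum went from 6.72%, 5.79% and 8.02% to 4.07%, 2.66% and 1.94%. C1q had set the classes, so its own ratio is a description. Each of the other sums was lower per pan-macrophage UMI in the C1q-high class of all 3 sections. Lyz2, at 6176, 8424 and 8853 CPM in the C1q-high spots, was the largest gene of the pan-macrophage sum. It differed by 1.91, against a list median of 1.55, so the ratios rest on this gene most. No test was made of these ratios, some genes of which are also made by other cell types.

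**Figure D3:**
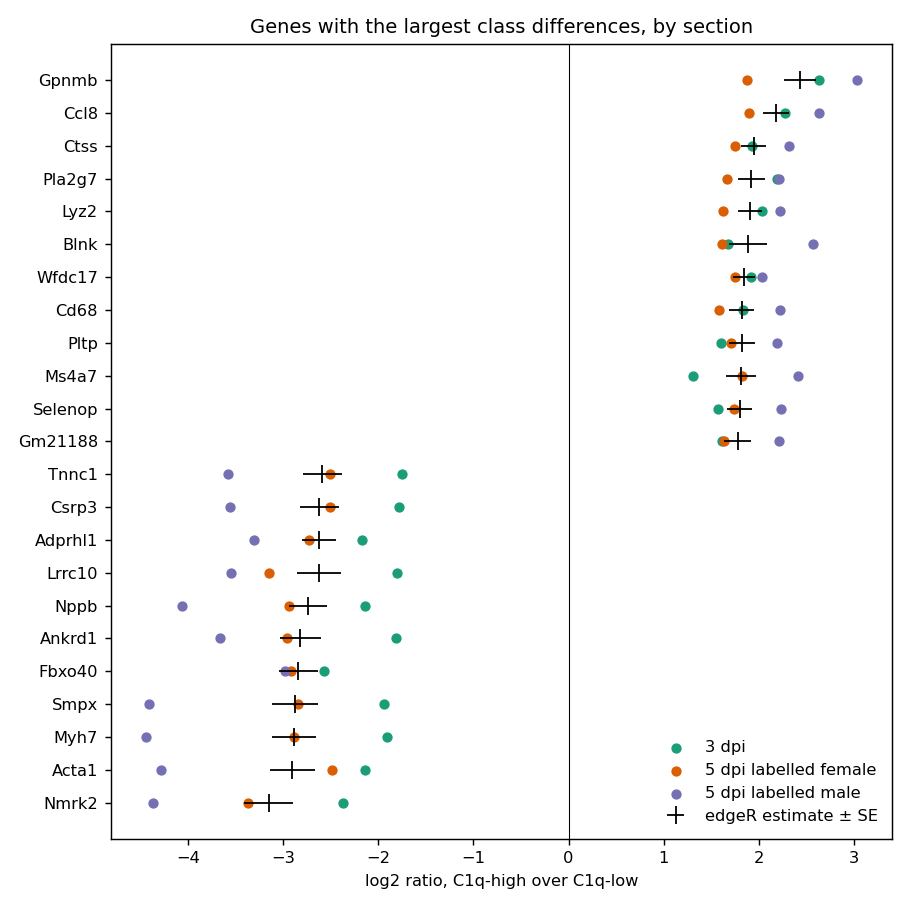
Log2 ratio of CPM, C1q-high over C1q-low, of the 12 genes highest and 11 of the 12 lowest in the C1q-high class, 1 point per section, with the edgeR estimate and its SE as a black cross. All points of the highest genes lie right of 0 and all points of the lowest genes left of it, with the widest spread in the cardiomyocyte genes, where the section labelled male lies farthest from 0.

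Genes that present, bind or take up targets of C1q were examined next. All 6 MHC class II genes tested of 8 were higher (median 1.11). H2-Aa was measured at 117, 149 and 174 CPM in the C1q-low spots and 238, 370 and 389 CPM in the C1q-high spots, and Cd74, the invariant chain, at 370, 527 and 731 CPM in the C1q-low spots and 754, 1195 and 1708 CPM in the C1q-high spots (log2 fold change 1.10, SE 0.11, adjusted p = 4.3e-07), both without overlap and with a rise over all quartiles. All 7 Fc receptors and adaptors were higher (median 1.56), among them Fcer1g 1.64, Fcgr1 1.63, Tyrobp 1.59, Fcgr2b 1.56, Fcgr3 1.55, Fcgr4 1.5 and Syk 0.91. Fcgr1, the high-affinity receptor for IgG, was at 68.9, 57.5 and 45.5 CPM in the C1q-low spots and 201, 154 and 206 CPM in the C1q-high spots. The high classes of the 3 sections lay between 154 and 206 CPM and the low classes between 45.5 and 68.9 CPM.

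Other components of the complement system differed in direction. Of 26 genes, 19 could be tested, 9 were higher and 3 lower (median 0.60). Receptors were among the higher genes. C3ar1 and C5ar1, the receptors for the anaphylatoxins, were at 89.1, 121 and 84.3 CPM in the C1q-low spots and 287, 315 and 310 CPM in the C1q-high spots, and at 50.4, 53.8 and 24 CPM in the C1q-low spots and 121, 106 and 67.3 CPM in the C1q-high spots, respectively. Itgb2 and Itgam, the chains of complement receptor CR3, had 1.54 and 1.51. Of the components that follow C1q in the cascade, C3 was measured at 27.7, 174 and 163 CPM in the C1q-low spots and 56, 273 and 528 CPM in the C1q-high spots (log2 fold change 1.10, SE 0.17, adjusted p = 4.78e-05) and C4b at 21, 45.4 and 44.6 CPM in the C1q-low spots and 35.3, 98.9 and 96.9 CPM in the C1q-high spots (log2 fold change 1.01, SE 0.15, adjusted p = 4.57e-05). Both were higher in the C1q-high class within every section, C3 least in that labelled female, and its difference was 0.69 without the section labelled male. Cfp, the properdin that stabilises the alternative pathway, had 0.76. The 3 lower genes were Clu, Masp1 and Cd59a. Clu, clusterin, an inhibitor of the membrane attack complex, was at 5392, 7144 and 9082 CPM in the C1q-low spots and 2023, 1864 and 1292 CPM in the C1q-high spots (log2 fold change -2.10, SE 0.17, adjusted p = 3.45e-08). Its C1q-low values were all above the RZ at 1624, 2681 and 2109 CPM. Masp1, a protease of the lectin pathway, was at 13.4, 39 and 28.1 CPM in the C1q-low spots and 6.9, 7.38 and 4.93 CPM in the C1q-high spots (log2 fold change -2.13, SE 0.29, adjusted p = 1.53e-05), and Cd59a, another inhibitor of the attack complex, at 50.4, 53.3 and 50.4 CPM in the C1q-low spots and 32.2, 24.1 and 28.7 CPM in the C1q-high spots (log2 fold change -0.94, SE 0.17, adjusted p = 0.000383).

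Genes of efferocytosis, the uptake of dying cells, were higher in 7 and lower in 2 of 20 tested of 23 (median 0.25, and 0.17 without the section labelled female). Mertk, a receptor tyrosine kinase for bridged phosphatidylserine, was measured at 5.04, 5.28 and 4.13 CPM in the C1q-low spots and 18.4, 14.8 and 14 CPM in the C1q-high spots (log2 fold change 1.61, SE 0.32, adjusted p = 0.00094), and its call was lost at 0.95 when spots were ranked by C1qa alone. The related Axl, which fibroblasts and vessels also express, was at 198, 198 and 204 CPM in the C1q-low spots and 178, 152 and 182 CPM in the C1q-high spots (log2 fold change -0.29, adjusted p = 0.0746). Msr1, a scavenger receptor, had 1.3, Cd300lf 1.73, P2ry6, a nucleotide receptor, 1.41, and Lrp1, a receptor for many ligands, 0.52. Lysosomal genes were higher in 25 of 28 and lower in 0 (median 1.07). Ctsb, cathepsin B, was at 2204, 2628 and 1990 CPM in the C1q-low spots and 5949, 6319 and 6353 CPM in the C1q-high spots (log2 fold change 1.41, SE 0.12, adjusted p = 4.16e-08), and Psap, the precursor of the saposins, at 1980, 2409 and 2150 CPM in the C1q-low spots and 5800, 6081 and 6868 CPM in the C1q-high spots (log2 fold change 1.47, SE 0.12, adjusted p = 1.95e-08). The higher genes ran from Lamp1 at 0.54 to Ctss at 1.95, with Lipa 1.29 and Lgmn 1.31 and Atp6v0d2, a subunit of the proton pump, 1.81 between them, while Ctsk, cathepsin K, had -0.17 (adjusted p = 0.509).

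Lipid and iron handling genes followed. Of 12 genes of cholesterol efflux and lipoproteins tested of 14, 8 were higher and 0 lower (median 0.91). Abca1 and Abcg1, transporters that export cholesterol, had 1.23 and 1.27. Abca1 was measured at 38.7, 48 and 38 CPM in the C1q-low spots and 98.1, 102 and 106 CPM in the C1q-high spots, the high classes of the 3 sections being within 98.1 to 106 CPM. Of 10 heme and iron genes tested of 13, 7 were higher and 2 lower (median 0.88). Ftl1 and Fth1, the chains of ferritin, were at 4863, 7054 and 5617 CPM in the C1q-low spots and 14680, 15600 and 15990 CPM in the C1q-high spots, and at 4451, 5938 and 6614 CPM in the C1q-low spots and 10390, 10950 and 16710 CPM in the C1q-high spots, respectively (log2 fold changes 1.37 and 1.10). Both rose over all 4 quartiles. Lcn2, an iron-scavenging protein of neutrophils and stressed tissue, was lower at 10.9, 17.4 and 12.4 CPM in the C1q-low spots and 4.6, 5.41 and 0 CPM in the C1q-high spots (log2 fold change -1.97, SE 0.42, adjusted p = 0.00167). Hmox1, heme oxygenase, was at 241, 404 and 305 CPM in the C1q-low spots and 1140, 545 and 307 CPM in the C1q-high spots (log2 fold change 0.84, adjusted p = 0.0168). The difference lay at 3 dpi, and without that section it was 0.22 and not called.

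Of 13 listed chemokines of the CC family, 10 could be tested, 9 were higher and 0 lower (median 0.99). Ccl21a, a CC chemokine outside the list, was lower (log2 fold change -1.62, SE 0.30). After Ccl8 the largest were Ccl3 1.78 and Ccl6 1.71. Ccl6 was measured at 165, 101 and 135 CPM in the C1q-low spots and 798, 330 and 318 CPM in the C1q-high spots, highest in the C1q-high class at 3 dpi. Ccl2 and Ccl7 recruit monocytes through Ccr2. Ccl2 was at 141, 88.1 and 71.9 CPM in the C1q-low spots and 321, 120 and 89.5 CPM in the C1q-high spots (log2 fold change 0.65, SE 0.14, adjusted p = 0.00208), and Ccl7 at 137, 127.2 and 110 CPM in the C1q-low spots and 369, 131 and 145 CPM in the C1q-high spots (log2 fold change 0.59, SE 0.17, adjusted p = 0.0171). Without the 3 dpi section they had 0.38 and 0.19 and were not called, while the difference between days did not pass the test for Ccl2 (interaction -0.71, adjusted p = 0.55), and without the section labelled female Ccl7 had 0.89. CXC chemokines were higher in 4 of 8 tested of 12 (median 0.50), with Cxcl16, a membrane-bound chemokine that is also a scavenger receptor, at 0.96.

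Growth factors were lower more often than higher. Of 14 cytokines and growth factors tested of 20, 2 were higher and 5 lower (median -0.38, and -0.24 without the section labelled male). Igf1 (1.0) and Tnfsf12 (0.90), which encodes TWEAK, were higher. Hbegf, a ligand of the EGF receptor, was at 144, 57.5 and 60.3 CPM in the C1q-low spots and 43.7, 21.2 and 12.3 CPM in the C1q-high spots (log2 fold change -1.79, SE 0.17, adjusted p = 1.52e-07). Vegfa, the main inducer of vessel growth, was at 58.8, 27.4 and 62 CPM in the C1q-low spots and 28.4, 17.2 and 14.8 CPM in the C1q-high spots (log2 fold change -1.26, SE 0.22, adjusted p = 0.000222). Tgfb2 and Gdf15, members of the TGF-beta family, had -1.01 and -1.03. For Hbegf, Tgfb2 and Gdf15 every C1q-low value exceeded every C1q-high value, and for Vegfa the classes differed within each section only. Il1b had -0.31 (adjusted p = 0.435).

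**Figure D4:**
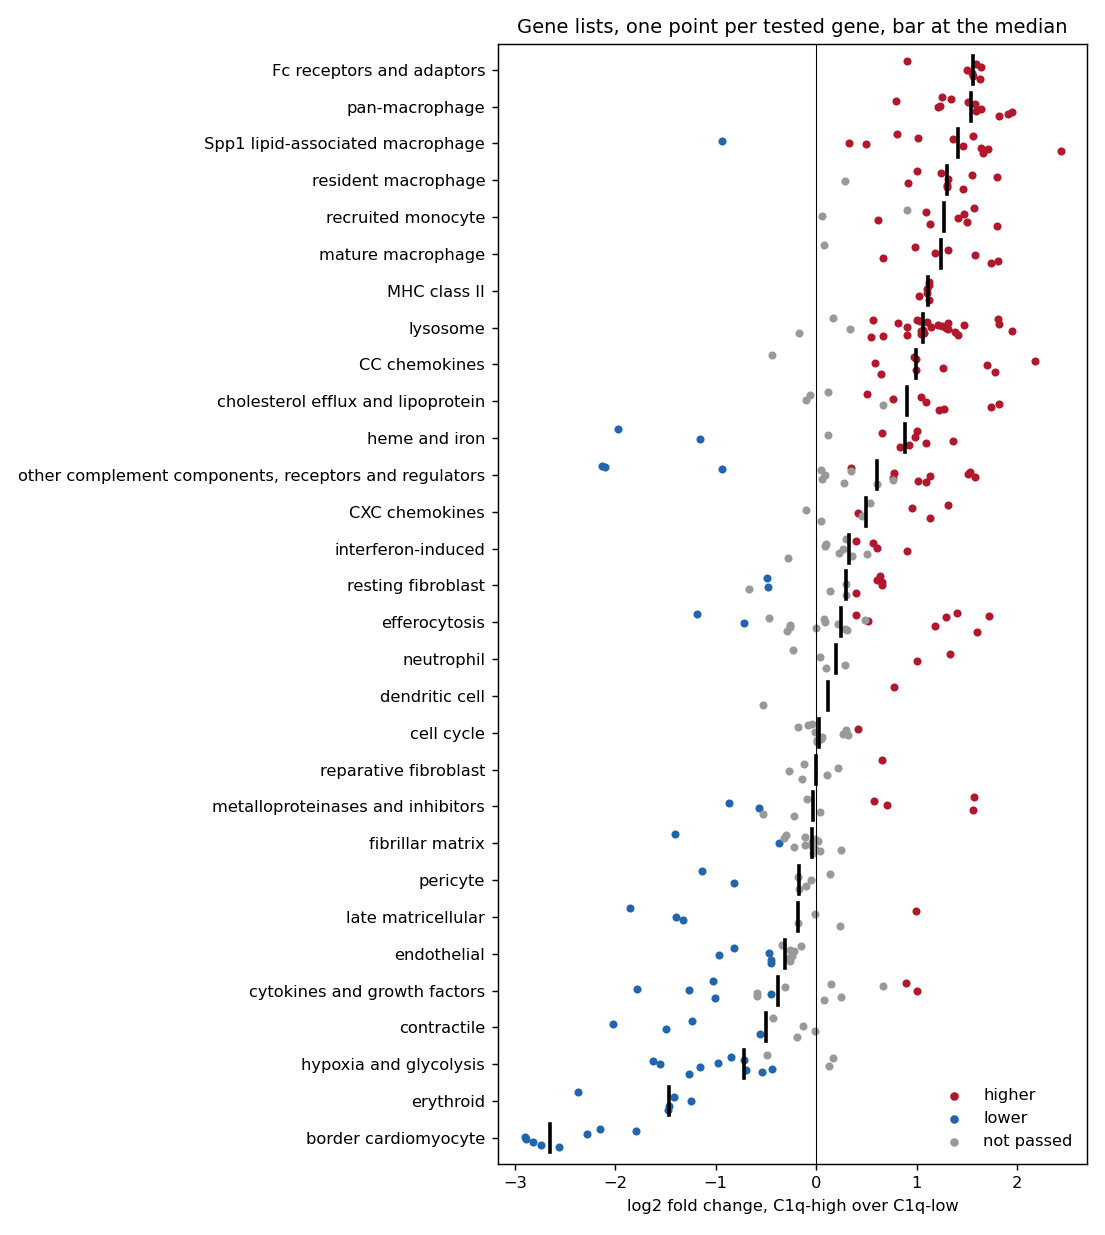
Log2 fold change, C1q-high over C1q-low, of each tested gene of the gene lists, coloured by its call at an adjusted p under 0.05, with a bar at the median of the list. Macrophage, Fc receptor and lysosome lists lie to the right with medians of 1.07 to 1.56, the fibrillar matrix and reparative fibroblast lists lie near 0, and border cardiomyocyte genes lie to the left with a median of -2.65.

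Fibrillar matrix genes encode collagens, the main product of the scar, and proteins beside them. Of 15 fibrillar matrix genes, 0 were higher and 2 lower (median -0.04). Col1a1 was measured at 2873, 5933 and 5074 CPM in the C1q-low spots and 3323, 5739 and 4748 CPM in the C1q-high spots (log2 fold change -0.03, SE 0.11, adjusted p = 0.905), and Col3a1 at 3158, 5808 and 4927 CPM in the C1q-low spots and 3882, 6510 and 6564 CPM in the C1q-high spots (log2 fold change 0.24, SE 0.11, adjusted p = 0.135). The classes overlapped, and sections differed more than classes did. Of 6 markers of reparative cardiac fibroblasts 1 was higher, Ptn (0.66), and Postn had -0.27 (adjusted p = 0.0892). The lower matrix genes were Col6a3 (-0.37), whose call was lost without the 3 dpi section at -0.27 or that labelled male at -0.39, and Tnc. Tnc, the glycoprotein tenascin C of fresh wounds, was at 1072, 469 and 620 CPM in the C1q-low spots and 558, 254 and 114 CPM in the C1q-high spots (log2 fold change -1.41, SE 0.19, adjusted p = 1.55e-05) and fell over all quartiles in each section. The reporter transcript EGFP was at 2761, 7509 and 10360 CPM in the C1q-low spots and 2076, 6590 and 8013 CPM in the C1q-high spots (log2 fold change -0.37, SE 0.11, adjusted p = 0.0204), lower in the C1q-high class of every section, but its call was lost without the 3 dpi section at -0.30 and without that labelled male at -0.36.

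Of 7 late matricellular genes tested of 8, 1 was higher and 3 lower (median -0.18). Thbs4, a thrombospondin, was measured at 100, 276 and 233 CPM in the C1q-low spots and 36.8, 106 and 96.9 CPM in the C1q-high spots (log2 fold change -1.40, SE 0.12, adjusted p = 5.96e-08), and Cilp, a protein of stressed matrix, at 135, 336 and 260 CPM in the C1q-low spots and 47.5, 131 and 125 CPM in the C1q-high spots (log2 fold change -1.33, SE 0.12, adjusted p = 1.44e-07). Prg4, lubricin, had -1.86, and Ccn5, of the CCN family, was higher at 1.0 and 0.62 without the section labelled male. Contractile genes were lower in 4 of 8 (0 higher, median -0.50, -0.78 without the section labelled male). Acta2, smooth muscle actin, was at 752, 1609 and 1334 CPM in the C1q-low spots and 678, 1483 and 1188 CPM in the C1q-high spots (log2 fold change -0.19, adjusted p = 0.236), and Cnn1, calponin, at 49.6, 139 and 115 CPM in the C1q-low spots and 13.8, 62.5 and 33.7 CPM in the C1q-high spots (log2 fold change -1.49, SE 0.16, adjusted p = 8.08e-07). Tpm1, a tropomyosin that cardiomyocytes also make, had -2.02. Timp1, an inhibitor of metalloproteinases, was at 2513, 2122 and 2935 CPM in the C1q-low spots and 1671, 1520 and 1104 CPM in the C1q-high spots (log2 fold change -0.87, SE 0.14, adjusted p = 0.000122), while Timp2 was higher at 0.58. The 12 endothelial genes held 5 lower and 0 higher (median -0.31). Emcn, endomucin of veins and capillaries, had -0.97, Flt1, a receptor of VEGF, -0.82, and Pecam1 -0.45, the last not called without the section labelled female at -0.35. Of 7 pericyte genes 2 were lower, Cspg4 with -1.14.

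The lowest genes of the C1q-high class were genes of cardiomyocytes, whose share had been used to draw the IZ but not to set the classes. Nmrk2, which makes NAD in muscle, was measured at 75.6, 45.9 and 67.8 CPM in the C1q-low spots and 14.6, 4.43 and 3.29 CPM in the C1q-high spots (log2 fold change -3.15, SE 0.26, adjusted p = 2.79e-08). Acta1, skeletal actin, was at 923, 647 and 1055 CPM in the C1q-low spots and 210, 115 and 54.2 CPM in the C1q-high spots (log2 fold change -2.90, SE 0.24, adjusted p = 2.84e-08), and Myh7, the myosin heavy chain of the stressed ventricle, at 225, 265 and 268 CPM in the C1q-low spots and 59.8, 35.9 and 12.3 CPM in the C1q-high spots (log2 fold change -2.89, SE 0.23, adjusted p = 2.2e-08). Ankrd1, a stretch-responsive protein of the sarcomere, was at 3103, 1287 and 1862 CPM in the C1q-low spots and 885, 165 and 147 CPM in the C1q-high spots (log2 fold change -2.82, SE 0.21, adjusted p = 1.39e-08). In each of these every C1q-high value lay below every C1q-low value, and the section labelled male had the lowest high class. Among the rest of the 12 lowest, Smpx -2.88, Fbxo40 -2.84, Nppb -2.74, Lrrc10 -2.62, Csrp3 -2.62, Adprhl1 -2.62 and Tnnc1 -2.59 fell over all quartiles in 3 of 3 sections. All 8 border cardiomyocyte genes were lower (median -2.65). Nppa, the atrial natriuretic peptide switched on in stressed ventricle, was at 17540, 13880 and 20140 CPM in the C1q-low spots and 4704, 2319 and 2415 CPM in the C1q-high spots (log2 fold change -2.56, SE 0.16, adjusted p = 5.39e-09), against 389 CPM in the healthy heart and 3803, 5597 and 6026 CPM in the RZ. Its C1q-low values were thus above the RZ in every section. The 12 cardiomyocyte genes of the zone rule were all lower (median -2.46).

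Genes of hypoxia and glycolysis were lower in 10 of 13 tested of 14 (0 higher, median -0.72). Hk2, hexokinase, had -1.62, Egln3, an oxygen sensor, -1.56, Bnip3, a mitophagy receptor, -1.16, and Pgk1, a glycolytic kinase, -0.70. Pgk1 was measured at 672, 473 and 620 CPM in the C1q-low spots and 496, 340 and 295 CPM in the C1q-high spots. Ldha, lactate dehydrogenase, had -0.44 and was not called without the 3 dpi section at -0.37 or without that labelled male at -0.40. Cardiomyocyte RNA, which carries several of these genes, differed between the classes in the same direction (3.13%, 1.47% and 1.76% against 0.907%, 0.264% and 0.189%), and its part in them was not tested. Within quartiles of the cardiomyocyte share, the ranking described next, 3 of the 13 were lower and 0 higher, with a median of -0.35.

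To compare spots of more similar cardiomyocyte content, the quartiles were taken within quartiles of the cardiomyocyte share of each section. With this ranking 626 of 9415 genes (6.65%) were higher and 394 (4.18%) lower, and 909 of the 1020 calls were shared with the first ranking, all 909 in the same direction. The pan-macrophage median was 1.15, that of resident macrophages 1.06, that of mature macrophages 0.97 and that of MHC class II 0.83, with 11 of 12, 10 of 10, 7 of 8 and 6 of 6 genes higher. Recruited monocyte genes had a median of 0.43, with 3 of 10 higher. The leading genes had smaller differences, with Ccl8 1.85, Selenop 1.76, Gpnmb 1.65 and Pltp 1.65. Spp1 went from 1.67 to 0.73. Border cardiomyocyte genes were still lower in 8 of 8, with a median of -0.86 in place of -2.65. Of the 12 cardiomyocyte genes of the zone rule 11 were still lower, with a median of -0.56. Cardiomyocyte RNA thus still differed between the classes of this ranking. Of the 137 genes described here that had passed the first test, 16 higher and 13 lower ones did not pass in the same direction with this ranking. The 16 higher ones were Saa3 0.79, Cd300lf 0.72, Csf3r 0.68, Ccl3 0.59, Acp5 0.47, Ly6c2 0.40, Cd14 0.40, Ms4a4c 0.37, Cfp 0.32, Cd9 0.30, Cd63 0.16, Plac8 0.12, Pcna 0.026, Hmox1 -0.063, Ccl2 -0.20 and Ccl7 -0.28. The 13 lower ones were Masp1 -0.65, Hk2 -0.38, Egln3 -0.75, Bnip3 -0.35, Lcn2 -0.91, Gdf15 -0.49, Thbs4 -0.27, Cilp -0.025, Lpl -0.15, Cd59a -0.25, Flt1 -0.48, Ldha -0.17 and Col6a3 -0.20. Late matricellular genes had 1 lower in place of 3, CC chemokines 4 higher in place of 9, and heme and iron genes 4 higher in place of 7. Among the genes that remained well below in the C1q-high class, picked after their values were seen, were Tnc -1.31, Igfbp3 -1.32, Cnn1 -1.11, Timp1 -0.99 and Emcn -0.98. Igfbp3 binds insulin-like growth factors.

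A further ranking divided C1q by macrophage content. Spots with at least 10 pan-macrophage UMIs were ranked by C1q UMIs per pan-macrophage UMI, so the pan-macrophage genes were used by this ranking and are a description. Its top and bottom quartiles had about the same C1q level, 2759, 4196 and 4397 CPM against 2638, 3895 and 4389 CPM, but the pan-macrophage sum was 4057, 5749 and 5609 CPM in the top and 11020, 14640 and 15070 CPM in the bottom quartile. Cardiomyocyte RNA was 2.96%, 1.63% and 1.55% against 1.33%, 0.213% and 0.339%. Of 9232 genes 1133 (12.3%) were higher and 731 (7.92%) lower, and of the 1249 calls shared with the first ranking 9 had the same direction. These counts include the 12 pan-macrophage genes, whose direction the ranking sets, all 12 lower. Border cardiomyocyte genes had a median of 2.06 and recruited monocyte genes -1.35. Of the spots in the top quartile by the ratio, 27.7%, 26.8% and 20.6% were C1q-high in the first ranking, against 18.3%, 11.8% and 23.5% of those in the bottom quartile. MHC class II had a median of -0.14, with 0 of 6 genes called in either direction. Resident macrophage genes had -0.57 and neutrophil genes -1.79, all below the median of all genes at 0.01.

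**Figure D5:**
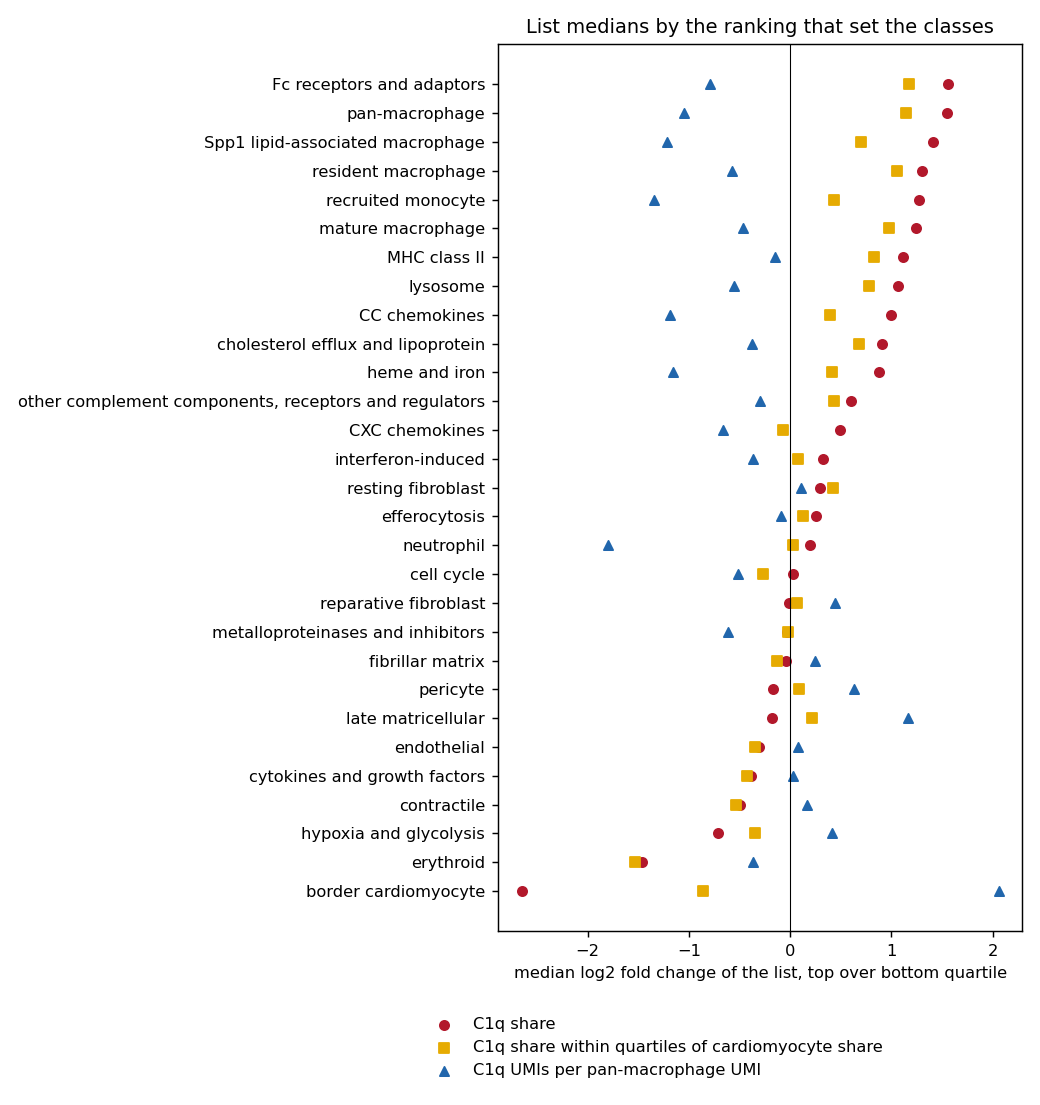
Median log2 fold change of each gene list, top over bottom quartile, when spots were ranked by C1q share (red circles), by C1q share within quartiles of cardiomyocyte share (yellow squares) and by C1q UMIs per pan-macrophage UMI (blue triangles). Macrophage lists keep medians above 0 within cardiomyocyte quartiles (1.15 for the pan-macrophage list) and lie below 0 under the ratio (-1.05), where the genes that form the ratio are a description.

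The class difference was set against time by testing whether it differed between the 2 sections at 5 dpi and the single section at 3 dpi. It did so for 43 genes (0.455%), 5 with a larger value at 5 dpi and 38 with a smaller one, and 528 genes had an unadjusted p under 0.05. With 1 heart at 3 dpi, day and heart cannot be told apart. The interaction fit left 1 residual degree of freedom, and the lone 3 dpi section was assumed to vary like the others. Its p-values thus rest on a spread shared across genes and not on one seen between hearts at 3 dpi. The 5 erythroid genes were all among the genes called. Hba-a1, an alpha globin chain whose near-identical copy Hba-a2 can share its reads, was measured at 584, 14050 and 3841 CPM in the C1q-low spots and 808, 2175 and 1052 CPM in the C1q-high spots (interaction -2.67, adjusted p = 5.61e-14). It was higher in the C1q-high class at 3 dpi and lower at 5 dpi, most in the section labelled female. Pooled over the sections the 5 erythroid genes were lower (median -1.46), but the calls for Hba-a1, Hba-a2 and Hbb-bs were lost without either 5 dpi section (Hba-a1 at -0.77 without that labelled female and -1.22 without that labelled male, and at -2.30 without the 3 dpi section), and that for Hbb-bt without the section labelled female at -0.71. Alas2, which starts heme synthesis in red cell precursors, had -2.38, and -1.53 without the section labelled female.

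Genes of several other lists were also among the 43. Hmox1 (interaction -1.92, adjusted p = 8.06e-10) and Ccl7 (-1.14, adjusted p = 0.00912) had a larger class difference in the 1 section at 3 dpi than in the sections at 5 dpi. Mmp9, a metalloproteinase of neutrophils and macrophages, was at 17.6, 24.3 and 16.5 CPM in the C1q-low spots and 45.2, 14.8 and 9.85 CPM in the C1q-high spots (-2.0, adjusted p = 0.0175). Serpina3n, an acute-phase protease inhibitor, was at 58.8, 238 and 164 CPM in the C1q-low spots and 39.1, 272 and 433 CPM in the C1q-high spots (1.44, adjusted p = 0.00912), and Prelp, a matrix proteoglycan, at 26.9, 74.9 and 57 CPM in the C1q-low spots and 12.3, 99.4 and 141 CPM in the C1q-high spots (2.01, adjusted p = 0.00679). Both were lower in the C1q-high class at 3 dpi and higher at 5 dpi, and passed the pooled test at 0.75 and 0.79 when the 3 dpi section was left out. Few of all genes had a called day difference, so the macrophage and MHC class II lists are too short to be read for it.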

How the data were processed

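Visium sections of 1 healthy and 3 infarcted mouse hearts, 10 µm thick, were used. The authors mapped the reads with Space Ranger (1.3.1 per the file headers) to a reference with the GFP sequence added, described as based on Ensembl in the methods and as mm10 in the submitters' processing notes, and picked the spots under tissue by hand. The deposited tables hold raw UMI counts, without normalization, for 21885 features. Of these, 13 mitochondrial genes entered neither CPM nor library sizes nor tests, and 623 spots of the section labelled male that do not lie under tissue were not used in the classes. Spots with 500 UMIs or more were kept, 1166 in the control and 1753, 1567 and 1423 in the infarcted sections, with 6370134, 10708223, 11269552 and 9701545 UMIs.

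UMIs were summed per class and section, 6 sums in all. The sums were compared with the quasi-likelihood test of edgeR (4.0.16, with limma 3.58.1 in R 4.3.3), after TMM scaling and filterByExpr. The section was a block, as both classes of a section come from 1 heart. C1qa, C1qb and C1qc were left out, and were tested only where the counts or the ranking had not used them. The test returns no standard error, so each SE is the size of the log2 fold change divided by the square root of its F statistic. Benjamini-Hochberg adjustment ran over all genes tested, with calls made under 0.05. The smallest class sum held 1189809 non-mitochondrial UMIs. Alternatives included DESeq2 1.42.0. Python 3.11.15 with pandas 2.3.3, NumPy 2.4.6, SciPy 1.17.1 and matplotlib 3.10.9 served for classes, maps and lists. The procedure was tested on simulated data.

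The text names the 12 highest and 12 lowest called genes by log2 fold change that kept their direction in 3 of 3 sections and averaged 50 CPM or more in a class, without the C1q genes and the 12 cardiomyocyte genes, and members of the gene lists beside them. A few of these genes are not reported here, although they count in the totals. The spot classes, gene lists and tests were chosen with earlier results of these data known, and no list was tested as a set.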

Additional observations from a re-analysis of the deposited data

Results flagged for a closer look

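The class difference of 43 genes differed between the 5 dpi sections and the 3 dpi section by the interaction term of edgeR's quasi-likelihood test. Among the genes described here, the difference at 5 dpi minus that at 3 dpi, on the log2 scale, was -2.67 for Hba-a1, -2.65 for Hba-a2, -2.21 for Hbb-bs, -2.36 for Hbb-bt and -3.13 for Alas2, genes of red cells. It was -1.92 for Hmox1, -1.14 for Ccl7, -2.0 for Mmp9 and -3.41 for Ppbp, a chemokine of platelets measured at 10.9, 6.86 and 10.7 CPM in the C1q-low spots and 46, 3.94 and 1.64 CPM in the C1q-high spots. It was 1.44 for Serpina3n and 2.01 for Prelp. Cardiomyocyte genes had a larger deficit in the C1q-high class at 5 dpi, by -1.04 for Acta1, -1.40 for Ankrd1, -1.14 for Csrp3, -1.39 for Myh7, -1.49 for Smpx and -1.15 for Tnnc1. With 1 section at 3 dpi these differences rest on that heart.

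In the 5 dpi section labelled male, 623 spots with counts were not marked as lying under tissue. They held 2428772 UMIs, with a median of 2539 per spot, and 5736 C1q UMIs, or 2573 CPM, above the 433 CPM of the healthy heart. These spots entered no comparison.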

How the results depend on the processing

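Against 1069 genes higher and 1126 lower, DESeq2 gave 474 and 572, a fit with no section block (no replicate block) 567 and 556, the division of counts into a part for ranking and a part for testing 701 and 718, and quartiles within quartiles of cardiomyocyte share 626 and 394. The section block pairs the 2 classes of 1 heart by design. The top against the bottom 10% of spots gave 695 lower genes and the ranking per pan-macrophage UMI 731. Leaving out 1 section gave 801 to 961 higher and 872 to 996 lower genes. The day difference was called for 14 genes in place of 43 when the 4 quartiles entered the fit. The other settings kept these counts over all genes within 1.5 times the reported ones. Of the 137 called genes described, 23 higher and 18 lower ones lost their call with no section block, 11 and 10 under DESeq2, 9 and 1 when spots were ranked by C1qa alone (among them Syk at 0.45) and 16 and 13 within quartiles of cardiomyocyte share, which also moved the counts of several gene lists, among them hypoxia and glycolysis from 10 lower to 3. All calls that DESeq2 and the fit without the block made were shared with the reported ones, 1046 and 1123, in the same direction. The genes named among the 12 highest and 12 lowest kept their call and direction under all alternatives except the ranking per pan-macrophage UMI, and the fit without the block, in which the log2 fold change of Nppb lost its call (adjusted p = 0.0603).

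Under the ranking per pan-macrophage UMI, genes reported as higher, or with a positive value, had log2 fold changes of Gpnmb -1.75, Ccl8 -0.52, Ctss -1.38, Pla2g7 -1.54, Lyz2 -1.57, Blnk -1.15, Wfdc17 -0.94, Cd68 -1.32, Pltp -0.42, Ms4a7 -0.71, Selenop -0.64, Gm21188 -1.23, Csf1r -0.56, Adgre1 -0.74, Cd14 -0.91, Itgam -1.65, Folr2 -0.50, Mrc1 -0.81, Pf4 -1.72, Apoe -0.54, C3ar1 -0.98, Spp1 -1.88, Trem2 -0.65, Fabp5 -1.54, Ccr2 -1.03, Ly6c2 -0.94, Saa3 -2.15, S100a8 -1.86, S100a9 -1.73, Clec4d -2.32, Csf3r -1.17, H2-Aa -0.29, Cd74 -0.22, C3 -0.51, C4b -0.38, C5ar1 -1.21, Itgb2 -1.41, Fcgr1 -0.66, Fcer1g -1.09, Tyrobp -1.01, Mertk -1.55, Lrp1 -0.066, Msr1 -1.71, Ctsb -0.91, Psap -1.01, Lamp1 -0.19, Abca1 -1.03, Hmox1 -2.52, Ftl1 -1.21, Fth1 -1.09, Ccl6 -1.78, Ccl2 -1.24, Ccl7 -1.74, Igf1 -0.43, Irf7 -0.014, Pcna -0.49, Mmp9 -2.55, Laptm5 -0.72, Aif1 -0.70, Ptprc -1.25, F13a1 -1.49, Cbr2 -0.13, Maf -0.43, Stab1 -0.54, Lgals3 -1.18, Cd9 -0.52, Cd63 -0.23, Plin2 -1.3, Acp5 -1.24, Mmp12 -1.59, Syngr1 -0.25, Plac8 -0.88, Chil3 -1.67, Ms4a4c -0.94, Adam8 -1.71, Fcgr3 -0.79, Fcgr2b -1.07, Fcgr4 -0.71, Syk -0.70, Lipa -1.08, Lgmn -0.69, Atp6v0d2 -2.67, Abcg1 -0.79, Ccl3 -1.54, Cxcl16 -0.23, Tnfsf12 -0.60, Ccn5 -0.25, Timp2 -0.0085, Cfp -1.17, Cd300lf -1.60, P2ry6 -0.60 and F10 -1.96. Genes reported as lower, or with a negative value, had Nmrk2 1.92, Acta1 2.50, Myh7 2.03, Smpx 2.0, Fbxo40 1.96, Ankrd1 2.04, Nppb 1.93, Lrrc10 2.08, Adprhl1 1.90, Csrp3 2.19, Tnnc1 2.30, Lpl 0.95, Clu 1.90, Masp1 1.78, Cd59a 1.05, Hbegf 0.93, Vegfa 0.41, Tgfb2 0.62, Gdf15 0.56, Postn 0.89, Tnc 0.17, Cilp 2.30, Thbs4 2.17, Cnn1 0.42, Tpm1 1.72, Nppa 2.10, Pgk1 0.25, Ldha 0.30, Lcn2 0.27, Flt1 0.37, Hk2 1.39, Egln3 1.25, Bnip3 0.78, Cspg4 0.63 and Col6a3 0.47. This ranking used the pan-macrophage genes and set spots rich in them into its bottom quartile. Within quartiles of cardiomyocyte share, Hmox1 had -0.063, Ccl2 -0.20 and Ccl7 -0.28, and Ppbp, not called, ranged from -1.45 without the 3 dpi section to 1.12 without that labelled male. The cause was not tested. Depth limits low genes, since 9459 of 21885 features had enough UMIs in the 6 sums to be tested.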

Other observations

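Gene groups not described above were also set against the background of 11.3% of all genes higher and 11.9% lower. Of 12 interferon-induced genes tested, 4 were higher and 0 lower (median 0.33). Irf7, a regulator of interferon genes, was measured at 183, 96 and 104 CPM in the C1q-low spots and 288, 169 and 285 CPM in the C1q-high spots (edgeR, log2 fold change 0.91, SE 0.14, adjusted p = 6.73e-05), and Bst2, tetherin, had 0.57. Isg15 had 0.23 (adjusted p = 0.306) and passed the test at 0.50 without the section labelled female. Of 12 genes of the cell cycle 1 was higher, Pcna (0.42), a clamp of DNA polymerase, and its call was lost without the 3 dpi section at 0.32 and without that labelled female at 0.38. The list had a median of 0.03.

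Lymphocyte and dendritic cell genes were mostly below the filter on low counts. Of 9 lymphocyte genes in the files 1 could be tested and 0 were called, and of 8 dendritic cell genes 2 could be tested and 1 was higher. Of 11 resting fibroblast genes, 5 were higher and 2 lower (median 0.30). Of 5 mesothelial genes 1 could be tested, and it was lower at -0.85, but not in every section. It was not called within quartiles of the cardiomyocyte share.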
